A study of Mus musculus with 15 samples.

Results

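Foam cells of mice fed a western-type diet for 14 weeks were compared, across all genes measured, with foam cells of mice kept on regular chow. The members were the 5 samples titled for 14 weeks of western diet (14w-WD) and the 5 titled for chow (CHOW), 10 of the 15 samples in all. Every mouse was of the C57BL/6 strain and carried the ApoE-/- genotype, the controls included, so no group was free of the deletion that makes these mice prone to atherosclerosis. CHOW mice received chow throughout, until week 22, and 14w-WD mice had 8 weeks of chow followed by 14 weeks of western diet that likewise ended at week 22. The remaining 5 samples had 2 weeks of the diet (2w-WD). They entered here through the spread estimate within groups and through the choice of probe set and the filter, which used all 15 arrays. Foam cells were cut by laser from sections of the aortic sinus, the widening of the aorta at its valve, and their RNA was amplified before it was hybridised to Affymetrix arrays that cover the mouse genome. The labels do not say which animal an array came from, so the p-values reflect the variation among these samples alone, and some of it may be technical. All levels are log2(intensity + 16), and a change is 14w-WD minus CHOW on that scale, which understates the change of dim genes.

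Foam cells are macrophages that have taken up lipoproteins from the artery wall and store their cholesterol as esters in droplets. They shed cholesterol through exporters driven by liver X receptors, hold down their own sterol synthesis when cholesterol is plentiful, and digest lipid in lysosomes. Lesional macrophages also answer interferons, which act through STAT and IRF factors on promoter elements such as the interferon-stimulated response element (ISRE) and switch on GTPases, antiviral proteins, antigen presentation and chemokines.

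Because the interferon genes held several of the larger differences described below, ISRE matches in 4 of their promoters are shown. These 4 were picked from promoters that hold a match. The stretches come from RefSeq promoter windows on GRCm38.p6 that run from 250 bases before to 50 bases after a gene's start, and capitals mark the match to GAAANNGAAA nearest the 5′ end, read on either strand, with 50 bases on each side. They are Gbp3 at chr3:142559949-142560058 (plus strand), Ifit1 at chr19:34640735-34640844 (plus strand), Irgm2 at chr11:58214863-58214972 (plus strand) and Rsad2 at chr12:26456513-26456622 (minus strand).
Gbp3: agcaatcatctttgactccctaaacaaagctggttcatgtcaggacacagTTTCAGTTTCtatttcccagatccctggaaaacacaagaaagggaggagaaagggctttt
Ifit1: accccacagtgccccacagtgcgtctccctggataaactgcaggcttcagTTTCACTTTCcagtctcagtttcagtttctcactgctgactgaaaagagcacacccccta
Irgm2: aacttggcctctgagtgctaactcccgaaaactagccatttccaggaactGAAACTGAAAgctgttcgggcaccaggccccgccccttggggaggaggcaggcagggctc
Rsad2: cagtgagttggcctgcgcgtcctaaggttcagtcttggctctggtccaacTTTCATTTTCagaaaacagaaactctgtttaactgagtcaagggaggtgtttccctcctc
Irgm2 carried the motif on the printed strand and the other 3 genes on its complement. The Gbp3 and Ifit1 windows held 2 matches each. A match describes letters in a window and is not a measured binding site.

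Most macrophage markers were bright in both groups, and 2 of the 19 on the array, Itgam and Spi1, lay below the filter. Adgre1, which encodes F4/80, stood at 12.81 ± 0.19 (SD, 5 arrays) in CHOW and at 12.93 ± 0.05 in 14w-WD, Lyz2 at 13.90 ± 0.17 and 13.95 ± 0.13, and Cd68 at 11.52 ± 0.82 and 11.45 ± 0.35, while Apoe lay below the level of 5.66 needed for testing in both (4.97 ± 0.56 and 5.34 ± 0.31). Probe sets above an intensity of 100 made up 21.7% ± 1.84 of a CHOW array and 24.8% ± 1.79 of a 14w-WD array, a difference of 3.14 percentage points (exact permutation test, two-sided, adjusted p = 0.0476 over 3 brightness thresholds). With 1 array left out, the unadjusted exact permutation p reached 0.0635. Of the CHOW arrays, replicate 1 stood apart with 24.7%, inside the 14w-WD range of 22.5% to 27.2%. Markers of heart muscle, which borders the aortic sinus, were bright on all 10 arrays but CHOW replicate 4, where the 20-gene list averaged 6.66 against 9.11 to 10.48 on the other CHOW arrays and 8.80 to 10.90 in 14w-WD. Correlations between arrays of a group ran from 0.888 to 0.962 in CHOW and from 0.944 to 0.972 in 14w-WD.

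**Figure D1:**
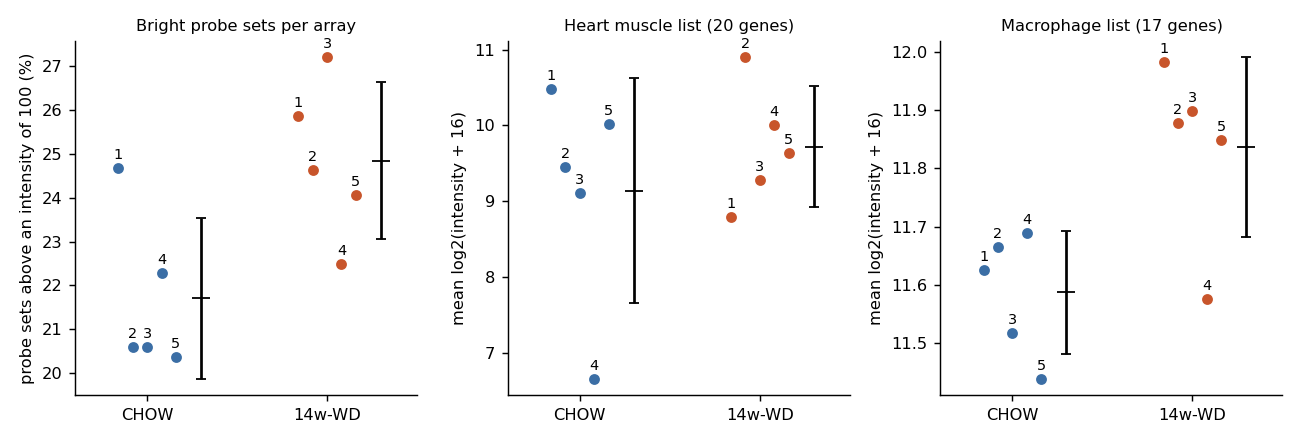
Each point is 1 array, numbered by replicate, with the group mean and SD beside it: the percentage of probe sets above an intensity of 100 (left), and the mean log2(intensity + 16) of the heart muscle list (middle) and of the macrophage list (right). CHOW 1, at 24.7%, lies within the 14w-WD range of bright probe sets, and CHOW 4 has the lowest heart muscle mean, 6.66.

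Across the transcriptome, 14w-WD arrays were higher for most genes, and 1 gene passed the test. Of 11925 genes tested by limma, Galnt7 alone had an adjusted p under 0.05, which is 0.00839% of them. With only the 10 CHOW and 14w-WD arrays fitted that count was 146, and without 2w-WD replicate 1 it was 193. With all 15 arrays, 1338 genes were higher (11.2%) and 555 lower (4.65%) at an unadjusted p under 0.05. Of these genes, 70.7% were higher. Without overlap between the groups, 368 genes had all 5 14w-WD arrays above all 5 CHOW arrays (3.09%) and 213 had them below (1.79%). The median change was 0.16, with 7820 genes above 0 and 4105 below, and 648 genes exceeded a change of 1 while 64 lay below -1.

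How the genes divided by direction depended on scaling and on brightness. Under quantile normalization, 43.6% of the genes at an unadjusted p under 0.05 were higher, with a median change of 0.00. With the share of bright probe sets as a covariate (added once the data had been seen), 46.5% were higher and the median was -0.02. Among genes with a mean intensity of at least 100, 86.0% were higher. In 4 bins of mean level with equal numbers of genes, from dim to bright, the median changes were 0.02, 0.13, 0.38 and 0.15, so the shift was largest at levels between 6.96 and 8.46. The median level of the 555 lower genes was 6.55 in CHOW and 5.87 in 14w-WD, and 176 of them had a 14w-WD mean below the filter of 5.66. That of the 1338 higher genes was 6.54 in CHOW and 7.51 in 14w-WD, and 134 of them had a CHOW mean below the filter. The spread was wider in CHOW, with a median SD of 0.43 per gene against 0.32 in 14w-WD, and it was the larger in CHOW for 71.0% of genes. It was widest in 2w-WD, at 0.51, and that group shares the spread estimate behind each limma p.

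**Figure D2:**
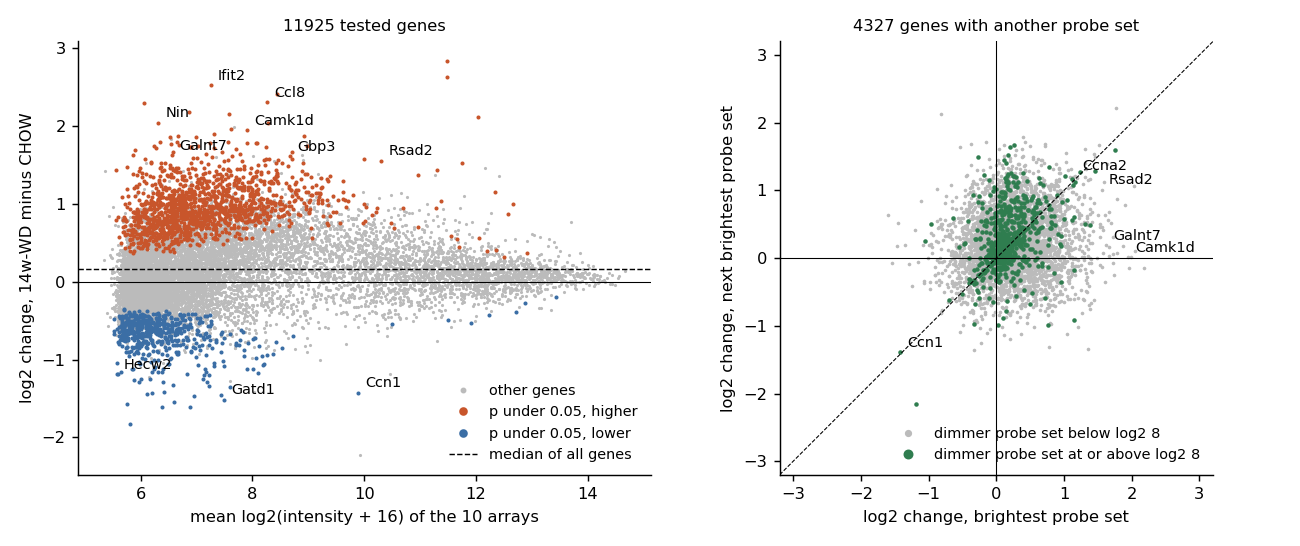
Left: the log2 change against the mean level for 11925 genes, coloured where the unadjusted limma p was under 0.05, with the median change of 0.16 dashed. Right: the log2 change of a gene's next brightest probe set against that of its brightest for 4327 genes. The right panel shows Galnt7 and Camk1d near 0 on the vertical axis, and Ccna2, Rsad2 and Ccn1 near the dashed line of equal change.

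Galnt7 encodes a transferase that adds sugars to mucin-type chains already begun by other enzymes of its family. Its levels on CHOW arrays 1 to 5 were 5.89, 5.44, 5.57, 6.34 and 5.46, and on 14w-WD arrays 1 to 5 they were 7.64, 6.89, 7.64, 7.18 and 7.48. Every 14w-WD array lay above every CHOW array, and 3 CHOW arrays lay below the filter. Galnt7 rose by 1.63 (SE 0.22, limma adjusted p = 0.0140). The other probe sets for this gene, at similar mean levels of 6.16 and 6.08 over all arrays, had changes of 0.19 and -0.20. The tested one averaged 6.22 with its high 14w-WD arrays included, so its choice was not independent of the difference. With all probe sets of a gene averaged, the change of Galnt7 was 0.54 and it no longer passed (adjusted p = 0.154). It also missed the threshold under quantile normalization (0.0516), with the brightness covariate (0.271) and when 1 array was left out, if that was CHOW 2, 3 or 5 or 14w-WD 1, 3 or 5 (0.0567 to 0.0807).

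The next smallest p-values on the higher side belonged to genes of several functions, each with groups that did not overlap. Nin, which encodes the centrosome protein ninein, stood at 5.00, 5.98, 5.27, 5.31 and 4.87 in CHOW and at 7.84, 7.36, 7.33, 6.94 and 7.20 in 14w-WD. The difference was 2.05 (SE 0.34, adjusted p = 0.0548). Most CHOW values of Nin lay under the filter, so the size of that difference depends on the pseudocount, and it was 1.26 with a pseudocount of 64. Ssx2ip, another centrosome gene, differed by 1.40 (SE 0.25, adjusted p = 0.0597), and all 5 of its CHOW arrays lay below the filter. Camk1d, a calcium and calmodulin dependent kinase gene, ran from 6.56 to 7.15 in CHOW and from 8.69 to 9.10 in 14w-WD. Here the gap between groups was wide beside the spread within them, and the change was 1.94 (SE 0.37, adjusted p = 0.0803). Chtop, which serves mRNA export, differed by 1.79 (SE 0.32), Ankhd1 by 1.73 (SE 0.30), Plpp6, a lipid phosphatase gene, by 1.78 (SE 0.34), and Cacybp, which encodes a partner of the ubiquitin ligase machinery, by 1.54 (SE 0.27). Mfsd14b (1.36, with 3 CHOW arrays below the filter), Lrif1 (1.36), Ddit4l (1.20) and Gpr65, a proton-sensing receptor gene (1.17), completed the 12 genes. Other than Galnt7, all had adjusted p-values from 0.0548 to 0.0831. Of the 12, 3 had a CHOW mean below the filter: Nin, Ssx2ip and Mfsd14b. These passed the filter only through their high 14w-WD arrays, so their entry to the test was not independent of the difference.

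On the lower side, 7 of the 12 genes with the smallest p had a 14w-WD mean below the filter, and none passed (adjusted p from 0.0803 to 0.0956). Gatd1 was the brightest of them in CHOW. Its levels were 7.98, 8.71, 8.16, 8.09 and 8.33 in CHOW and 6.22, 6.54, 7.25, 6.30 and 7.37 in 14w-WD, without overlap, a change of -1.52 (SE 0.30, adjusted p = 0.0814). Marcksl1, whose protein binds calmodulin and actin, was the steadiest: 7.14, 7.21, 7.17, 7.14 and 7.28 in CHOW against 6.54, 6.25, 6.43, 6.67 and 6.45 in 14w-WD. The groups were again apart, by -0.72 (SE 0.17). Ctnnd1, which encodes the junction protein p120 catenin, had -1.54 (SE 0.36), and Hecw2, a ubiquitin ligase gene, had -1.18 (SE 0.22). The rest were Tex15 (-0.90), Gata5os (-1.16), the sodium-calcium exchanger gene Slc8a3 (-0.86), the hair keratin gene Krt86 (-0.84), Mrgprb1 (-1.12), Macroh2a3 (-0.81), the homeobox gene Irx5 (-0.80) and the secreted signal gene Wnt7b (-0.91). Wnt7b was the only 1 of the 12 whose groups overlapped. Dimmer probe sets below the filter had 0.73 for Slc8a3 and 0.18 for Marcksl1. Those of Macroh2a3 (-0.91), Hecw2 (-0.39), Wnt7b (-0.27) and Ctnnd1 (-0.22) were below 0.

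**Figure D3:**
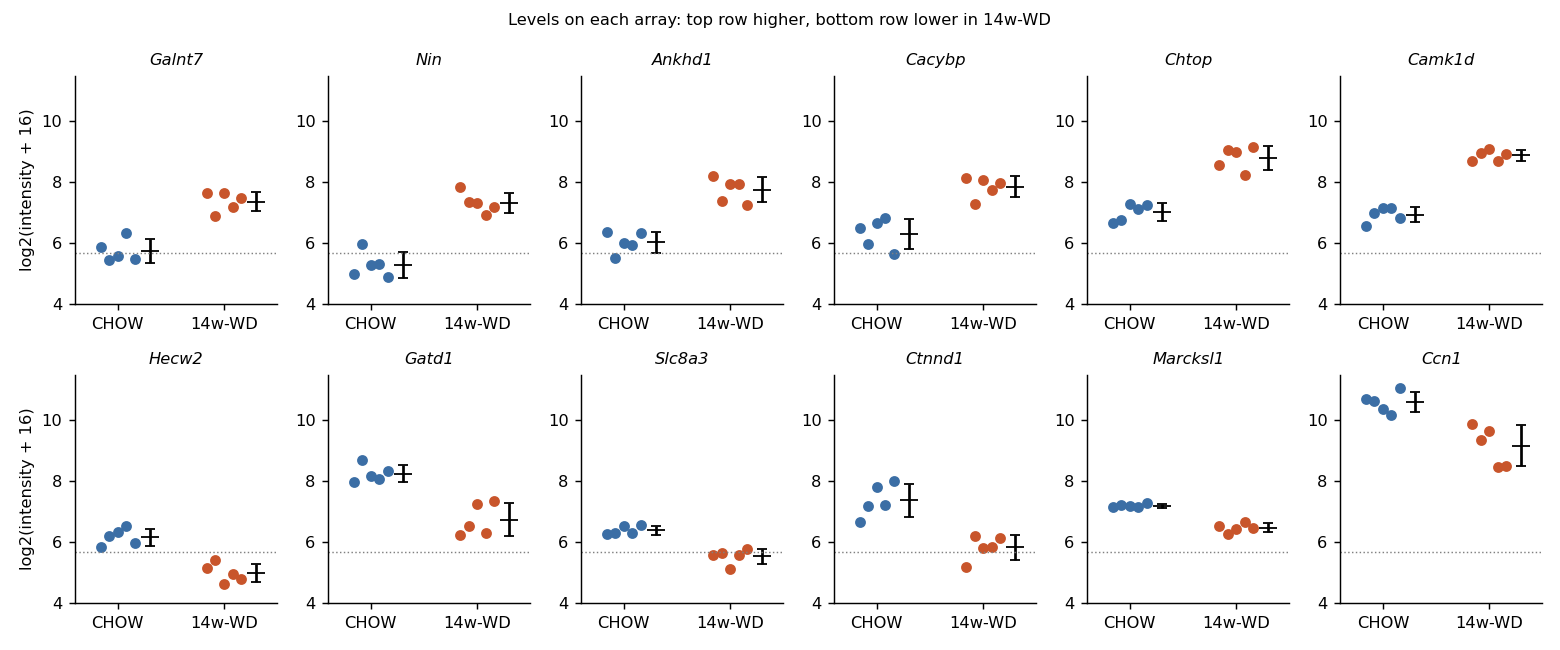
Log2(intensity + 16) of 12 genes on each of 5 CHOW (blue) and 5 14w-WD (orange) arrays, with the mean and SD, and with the filter level of 5.66 dotted. In all 12 panels the groups do not overlap, and Nin in CHOW and Hecw2 and Slc8a3 in 14w-WD average below the filter.

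Many genes on this array are read by several probe sets, and these often differed. Of 4327 tested genes with another probe set above the filter, 452 were higher at an unadjusted p under 0.05, and their next brightest probe set was above 0 in 67.9%, against 67.2% of all 4327. The next brightest probe set was itself higher at that p for 18.8% of the 452, against 14.4% of all. For the 113 lower genes it was below 0 in 43, against 1420 of all 4327, with a median change of 0.12, and it was lower at that p for 7.96%, against 4.32% of all. Across genes, which are not independent replicates, the changes of both probe sets correlated at 0.126 (n = 4327), at 0.359 where the dimmer one was at or above a level of 8 (n = 675), and at 0.571 at or above 10 (n = 317). Nin (2.05 and 0.11), Ankhd1 (1.73 and 0.07), Camk1d (1.94 and 0.01) and Ctnnd1 (-1.54 and -0.07) had a large change on 1 probe set alone. Probe sets can read different transcript ends, and which one reflects the gene's level was not tested.

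Several genes, picked because their probe sets agreed, gave like values on the 2 brightest. Ccna2, the cyclin of DNA replication and entry into mitosis, had changes of 1.16 and 1.22, and Psmc6, an ATPase subunit of the proteasome, of 1.31 and 1.20. Opa1, which fuses mitochondrial inner membranes, had 1.38 and 1.17, and Polr1d, an RNA polymerase subunit gene, 1.28 and 1.09. Cd40, the receptor through which T cells activate macrophages, had 1.06 and 1.30, and H2-DMb2, which helps load peptides on MHC class II, 1.11 and 1.05. Rsad2, the antiviral gene of viperin, had 1.55 and 1.01. On the lower side Ccn1, which encodes a secreted matrix protein, had -1.42 and -1.39. A further, dimmer probe set below the filter had 0.08 for Psmc6, 0.09 for Opa1, 0.09 for Rsad2, 0.19 for H2-DMb2 and 0.29 for Cd40. These probe sets were read on the same arrays and share their RNA, and none of these genes passed the test.

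Interferon-inducible GTPases were among the lists with the highest medians. Of 5 tested guanylate-binding protein genes, 3 were higher at an unadjusted p under 0.05 and 0 lower, beside 11.2% and 4.65% of all genes. Their median change was 0.76, beside 0.16 for all genes, and 0.46 beside 0.00 under quantile normalization. It was 0.39 with the brightness covariate. Gbp3 stood at 7.66, 7.52, 7.56, 8.48 and 8.16 in CHOW and at 9.51, 8.67, 9.43, 9.40 and 10.41 in 14w-WD. The groups did not overlap, 14w-WD replicate 5 was the highest array, and the change was 1.61 (SE 0.41, adjusted p = 0.117). Gbp6 had no overlap either (1.69, SE 0.40, adjusted p = 0.0956), but all its CHOW arrays lay below the filter. Its mean over all arrays, 5.69, passed the filter of 5.66 only through its high 14w-WD arrays. Its entry to the test, and to this list's counts and median, was therefore not independent of the difference. Gbp2 was bright and nearly level on its main probe set (0.20, SE 0.29), and it had 0.87 on a far dimmer one.

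The immunity-related GTPases had a median of 1.13 over 5 tested genes, of which 3 were higher at an unadjusted p under 0.05 and 0 lower, where all genes had 11.2% and 4.65%. Irgm2, which regulates the other members of its family, stood at 7.10, 5.21, 5.82, 5.48 and 5.75 in CHOW and at 7.38, 6.79, 7.21, 6.86 and 7.87 in 14w-WD. Only CHOW replicate 1 reached the 14w-WD range. The change was 1.35 (SE 0.34, adjusted p = 0.113), and 0.81 with the brightness covariate. Gm4951 (1.72, SE 0.43) had no overlap, with 4 of 5 CHOW arrays below the filter, and Ifi47 (1.13, SE 0.42) overlapped.

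Of 40 tested interferon-stimulated antiviral genes, 8 were higher at an unadjusted p under 0.05 and 0 lower, beside 11.2% and 4.65% of all genes. A change above 0 was seen in 31 of the 40, and in 7820 of all 11925 genes. The list's median was 0.37, and 0.17 with the brightness covariate. Ifit2, which binds viral RNA, stood at 7.34, 6.32, 5.75, 6.45 and 4.09 in CHOW and at 9.12, 6.80, 8.41, 8.67 and 9.59 in 14w-WD. Only 14w-WD replicate 2 fell within the CHOW range, and the change of 2.53 (SE 0.63, adjusted p = 0.113) was the largest of the list. Rsad2 stood at 10.39, 10.22, 10.12, 10.05 and 6.83 in CHOW and at 11.11, 10.45, 10.99, 11.13 and 11.70 in 14w-WD. The groups did not overlap, CHOW replicate 5 lay far below all others, and the change was 1.55 (SE 0.63) with it and 0.88 without it. Rtp4 (1.58), Ifit1 (1.46), the DNA-sensing family member Ifi204 (1.36), Ifit3 (1.08), Trim30a (0.92) and Samhd1, which depletes nucleotides (0.37), completed the 8. No member passed the test, and adjusted p-values of those named began at 0.113.

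Members of the interferon lists often held the ISRE motif, whether or not they were higher. It (GAAANNGAAA) stood in 3.44% of 32851 RefSeq promoters, the STAT motif TTCNNNGAA in 8.30%, both strands read. Of the 14 members of these 3 lists higher at an unadjusted p under 0.05, 9 had a promoter in the table and 6 of the 9 held the ISRE motif (Gbp3, Ifit1, Ifit3, Irgm2, Rsad2 and Trim30a). Ifit2, with the largest change of these lists, Ifi47 and Samhd1 held none. Among the other tested members it stood in 13 of 28. Over all 1338 higher genes the share was 3.52% and over all 555 lower genes 3.26%, beside 3.74% of the tested genes with a promoter.

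**Figure D4:**
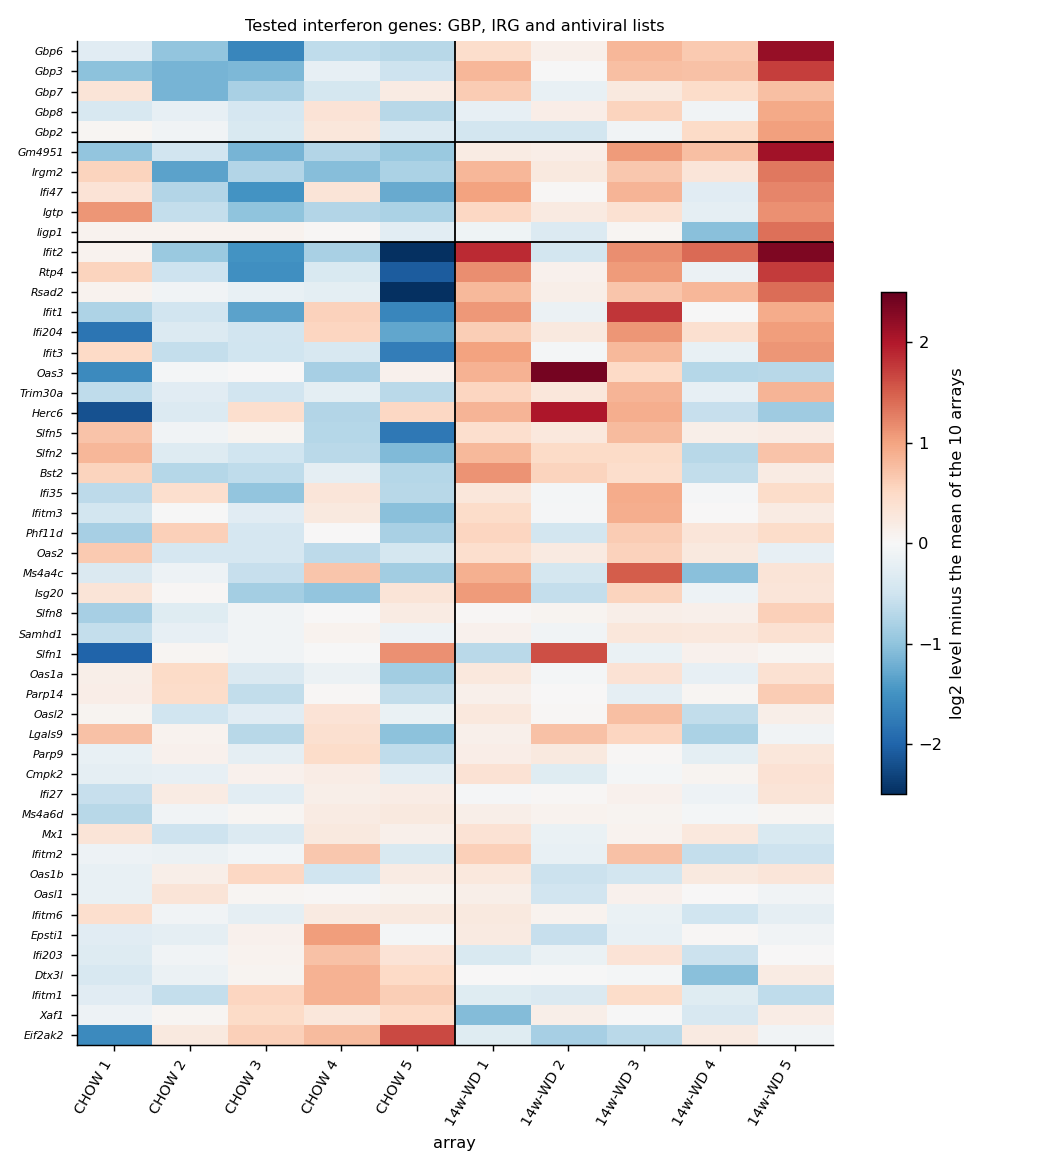
Tested members of the guanylate-binding protein, immunity-related GTPase and antiviral lists (rows, each list sorted by change) on 5 CHOW and 5 14w-WD arrays, coloured by the log2 level minus the mean of the 10 arrays. The upper rows of each list are redder on 14w-WD arrays, 14w-WD 5 is highest for Gbp3 (10.41) and Ifit2 (9.59), and CHOW 5 is lowest for Rsad2 (6.83).

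Upstream, 3 of 19 tested interferon regulatory factors, STATs and receptors were higher at an unadjusted p under 0.05 and 1 was lower. Over all genes these shares were 11.2% and 4.65%. The list's median was 0.33 (0.06 with the brightness covariate). Tyk2, a kinase of the interferon receptor (0.90, SE 0.23), Irf1 (0.87, SE 0.30) and Irf5 (0.73, SE 0.29) were the higher ones, and Stat5b (-0.39, SE 0.18) the lower. Nucleic acid sensors were mixed, with 4 of 12 higher, 1 lower and a median of 0.07. Ifih1, the sensor of long viral RNA (0.86, SE 0.32), Tlr3 (0.79, SE 0.31), Zbp1 (0.77, SE 0.33) and Tlr7 (0.69, SE 0.30) were the higher ones. Dhx58, which encodes the RNA sensor LGP2, was lower without overlap: 6.50, 7.14, 6.78, 7.08 and 7.06 in CHOW against 6.27, 5.87, 6.28, 6.44 and 6.00 in 14w-WD. Its change was -0.74 (SE 0.20, adjusted p = 0.127). The other probe sets of Dhx58, dimmer and below the filter, had 0.09 and 0.01.

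Of the antigen presentation genes, the MHC class I and immunoproteasome list had 3 of 13 higher at an unadjusted p under 0.05 and 0 lower, beside 11.2% and 4.65% of all genes, and a median of 0.45 (0.24 under quantile normalization, 0.09 with the brightness covariate). Psmb8, a catalytic subunit of the immunoproteasome, stood at 8.10, 7.81, 6.05, 7.05 and 4.98 in CHOW and at 8.87, 8.54, 8.55, 6.43 and 8.11 in 14w-WD. The groups overlapped because of 14w-WD replicate 4, the change was 1.30 (SE 0.60, adjusted p = 0.309), and the other probe set had 0.02. Psmb9 had 0.90 and the proteasome activator Psme1 0.60. For MHC class II, 2 of 12 were higher, Cd40 and H2-DMb2, 0 lower, and the median was 0.32 (0.08 with the brightness covariate). The constitutive proteasome had 3 of 28 higher (Psmc6, Psma7 and Psmd1), 0 lower and a median of 0.24. Psmc6 stood at 7.38, 7.03, 7.19, 7.99 and 7.81 in CHOW and at 9.18, 8.58, 8.92, 8.65 and 8.61 in 14w-WD. All 14w-WD arrays lay above all CHOW arrays (1.31, SE 0.36, adjusted p = 0.132).

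Among 20 tested chemokines, 5 were higher at an unadjusted p under 0.05 and 1 lower, beside 11.2% and 4.65% of all genes, with a median of 0.33 (0.06 under quantile normalization). Ccl8, a monocyte attractant, stood at 9.05, 6.23, 6.66, 7.04 and 6.51 in CHOW and at 9.49, 8.92, 9.61, 7.24 and 11.78 in 14w-WD. CHOW replicate 1 lay inside the 14w-WD range, and the change was 2.31 (SE 0.72, adjusted p = 0.160), or 1.40 with the brightness covariate. Cxcl9, an interferon gamma target that draws T cells, stood at 5.68, 6.06, 5.87, 6.74 and 6.41 in CHOW and at 6.54, 6.11, 9.20, 7.65 and 9.96 in 14w-WD. Replicates 3, 4 and 5 of 14w-WD were above all CHOW arrays and the other two were not (1.74, SE 0.59, adjusted p = 0.193). Cxcl13, which attracts B cells, had 1.40 on its main probe set and -0.01 on the other. Cxcl12 had 0.74, and -0.01 on its next brightest probe set. Ccl4 had 0.57, while the membrane-bound chemokine gene Cx3cl1 had -0.71 (SE 0.30). Its receptor gene Cx3cr1 was among 9 tested receptors, of which 1 was higher (0.76) and 1 lower (Ccr9, -0.49), with a median of -0.09.

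The tested inflammatory cytokine genes stayed near the background of all genes, which was 11.2% higher and 4.65% lower at an unadjusted p under 0.05. Of 17, 1 was higher (Il18, 0.76), 0 were lower, and the median was 0.12 (-0.10 under quantile normalization). Il1b had -0.32 (SE 0.27), Ccl2 had 0.33 (SE 0.36), and Tnf was not tested because of its low mean level. Il6 was not tested for the same reason, and its 14w-WD mean was 1.41 above its CHOW mean. NF-kB, inflammasome and Toll-like receptor genes had 3 of 33 higher, 0 lower and a median of 0.27, with Relb (0.93), the adaptor Tirap (0.79) and Casp4 (0.54). Of 17 alternative activation and resident macrophage genes, 3 were higher, 0 lower and the median was 0.32 (0.06 under quantile normalization and -0.09 with the brightness covariate). Folr2, a folate receptor of resident macrophages, stood at 6.95, 6.20, 6.66, 5.94 and 6.22 in CHOW and at 8.60, 7.78, 7.90, 6.66 and 7.18 in 14w-WD. The ranges overlapped through 14w-WD replicate 4, and the change was 1.23 (SE 0.33, adjusted p = 0.123). Chil3 had 1.30 and Retnla 1.43, the latter below the filter on every CHOW array.

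The lipid handling lists of this paragraph had medians from 0.08 to 0.23, beside 0.16 for all genes. Abca1, the cholesterol exporter, stood at 12.45 ± 0.41 and 12.71 ± 0.07 (0.26, SE 0.17, adjusted p = 0.446), Abcg1 at 12.95 and 13.09, and the droplet coat gene Plin2 at 13.62 and 13.73. Lipoprotein lipase (Lpl, 0.06, SE 0.13) and the scavenger receptor genes Cd36 (0.03, SE 0.43) and Msr1 (0.43, SE 0.34) had no adjusted p under 0.05 either. All but Abca1 of these 6 genes were chosen after their values were seen, so they do not show how lipid handling genes behaved as a class. Among cholesterol efflux and liver X receptor targets, 2 of 18 were higher, 0 lower and the median was 0.21. Those were Rxra (0.79, and 0.23 on its next brightest probe set) and the desaturase gene Scd2 (0.94, and 1.01 and -0.42 on its other probe sets). The scavenger receptor list had 0 of 16 at an unadjusted p under 0.05, where all genes had 11.2% higher and 4.65% lower. Its median was 0.08. The lipid droplet and fatty acid list had 1 of 33 higher (Abhd5, a lipase activator, 0.87, and -0.71 on its other probe set), 0 lower and a median of 0.23. The lipid-associated macrophage list had 1 of 20 higher (Cd9, 1.02), 0 lower and a median of 0.10. Lysosome genes had 3 of 48 higher (Atp6v1d, 0.39, Gnptab, 0.72, and Atp6v1a, 0.95), 0 lower and a median of 0.16, the same as all genes. The next brightest probe sets had 0.13 for Atp6v1d, 0.10 for Gnptab and 0.17 for Atp6v1a. A further one of Atp6v1d had 1.30.

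Sterol biosynthesis genes pointed both ways. Of 15 tested, 3 were higher and 1 lower at an unadjusted p under 0.05, beside 11.2% and 4.65% of all genes. The median of 0.54 was 0.17 under quantile normalization and -0.00 with the brightness covariate. Cyp51, a demethylase of the pathway, stood at 4.82, 5.15, 7.42, 5.75 and 5.63 in CHOW and at 6.67, 7.39, 7.84, 6.80 and 6.65 in 14w-WD. CHOW replicate 3 alone reached the 14w-WD range (1.31, SE 0.40, adjusted p = 0.149). The other probe sets of Cyp51, dimmer and below the filter, had -0.44 and 0.30. Pmvk, an early enzyme, had 1.16 and Lss, which closes the sterol rings, 0.54. Sqle, the enzyme just before Lss, stood at 6.02, 6.10, 6.54, 6.50 and 6.82 in CHOW and at 5.34, 5.29, 5.75, 5.73 and 6.37 in 14w-WD. Only 14w-WD replicate 5 lay within the CHOW range, and the change was -0.70 (SE 0.28, adjusted p = 0.244). Hmgcs1, a bright gene of the pathway also chosen after its value was seen, had 0.02 (SE 0.20).

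Cell cycle genes had 7 of 43 higher and 1 lower, beside 11.2% and 4.65% of all genes, and a median of 0.38 (0.16 under quantile normalization, 0.19 with the brightness covariate). Top2a, the topoisomerase of dividing cells, stood at 6.09, 5.15, 5.20, 6.12 and 5.82 in CHOW and at 6.78, 6.55, 7.57, 6.24 and 7.79 in 14w-WD. The groups did not overlap (1.31, SE 0.30, adjusted p = 0.0956). Ccna2 stood at 6.22, 6.59, 6.90, 7.47 and 6.32 in CHOW and at 7.89, 7.56, 8.53, 7.40 and 7.93 in 14w-WD. Only CHOW replicate 4 and 14w-WD replicate 4 overlapped (1.16, SE 0.38, adjusted p = 0.177). Rrm2, a subunit of ribonucleotide reductase, had 1.10, Rrm1 had 1.21 (0.13 on its other probe set), the centromere genes Cenpe and Cenpa 0.92 and 0.82, and the replication clamp gene Pcna 0.91. Kif11, the motor gene of spindle poles, was the lower one (-0.76, SE 0.33). Centrosome and microtubule genes had 4 of 22 higher (Nin, Cep192, Sass6 and Cenpj), 0 lower and a median of 0.34, which was 0.0015 with the brightness covariate.

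Besides Galnt7, the mucin-type glycosyltransferase list held Galnt4 (1.03), C1galt1, which extends the first sugar (1.06, and 0.15 on its other probe set), Galnt11 (1.26, and 0.10) and St3gal2 (0.79) among its 5 of 16 higher genes. None was lower, and the median of 0.44 was -0.13 with the brightness covariate. Of all genes, 11.2% were higher and 4.65% lower at an unadjusted p under 0.05. Heat shock genes had 6 of 20 higher, 0 lower and a median of 0.29. They were Cacybp, Hspa13 (1.21), Ahsa1, an activator of the HSP90 chaperone (1.14), Dnajb6 (1.08), Dnaja1 (1.01) and Hspe1 (0.73). The next brightest probe sets had 0.31 for Hspa13 and 0.16 for Dnajb6. Ahsa1 stood at 7.68, 7.42, 7.02, 7.55 and 7.45 in CHOW and at 8.88, 8.69, 8.89, 7.65 and 8.71 in 14w-WD. All 14w-WD arrays but replicate 4 were above all CHOW arrays (SE 0.34, adjusted p = 0.146). The unfolded protein response list had 2 of 25 higher, the stress sensors Eif2ak3 and Atf6 (0.48 each), 0 lower and a median of 0.31. Of 19 cell death genes 4 were higher, 0 lower and the median was 0.31 (-3.6e-06 with the brightness covariate), with the BCL2 family effector Bak1 (1.22), Bmf (0.91), Birc2 (0.90) and Casp8 (0.71).

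Over all tested genes, 368 were higher (3.09%) and 213 lower (1.79%) without overlap. In the brightest of the 4 bins of mean level, which began at 8.46, 75.7% of genes had a change above 0. Among genes bright in both groups, with means of at least 8, 59 were higher and 7 lower without overlap. These are counts and not shares of the bright genes, and an excess of higher genes was not particular to them. The 8 largest differences on the higher side were those of Rsad2, Plekha2 (1.52, SE 0.44), Dmxl2 (1.42, SE 0.49), Opa1 (1.38, SE 0.50), Tnrc6b, a gene of microRNA silencing (1.34, SE 0.42), Serinc1 (1.32, SE 0.46), Polr1d (1.28, SE 0.42) and the autophagy gene Atg10 (1.22, SE 0.41). Plekha2 stood at 9.17, 8.48, 7.37, 8.26 and 7.42 in CHOW and at 9.72, 9.60, 9.67, 9.54 and 9.78 in 14w-WD. The CHOW arrays were widely spread and the 14w-WD arrays nearly equal, a pattern shared by Tnrc6b and Serinc1. Other probe sets above the filter had 0.50 and -0.41 for Plekha2, and 0.50, 0.34 and 0.65 for Serinc1. The adjusted p-values of these 8 ran from 0.136 to 0.251.

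On the lower side, Ccn1 stood at 10.72, 10.63, 10.38, 10.19 and 11.06 in CHOW and at 9.89, 9.35, 9.66, 8.46 and 8.49 in 14w-WD. The change was -1.42 (SE 0.45, adjusted p = 0.168), and all its 4 probe sets were below 0 (-1.42, -1.39, -0.86 and -0.37). Actn4, which crosslinks actin filaments, had -0.42 (SE 0.16), Clcn5, a chloride and proton exchanger gene, -0.43, and Zbtb42 -0.42. Eif4b, a translation factor gene, had -0.41, Adcy3, an adenylate cyclase gene, -0.40, and Sertad1 -0.22. Of these 7 genes, Ccn1 and Actn4 had an unadjusted limma p under 0.05. Other probe sets above the filter had 0.54 and 0.12 for Eif4b, 0.01 and 0.19 for Adcy3, and -0.46, 0.60 and -0.48 for Clcn5.

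Ribosomal and metabolic genes lay close to the median of all genes. Beside the counts that follow, 11.2% of all genes were higher and 4.65% lower at an unadjusted p under 0.05. Cytosolic ribosomal proteins had 0 of 36 at an unadjusted p under 0.05 in either direction and a median of 0.07, and the respiratory chain had 3 of 54 higher (Uqcrfs1, Ndufa6 and Ndufs4), 0 lower and a median of 0.16. Glycolysis and hypoxia genes had 3 of 29 higher (Pdk1, 1.21, Pkm, 0.97, and Car9, 0.72), 1 lower (Pfkfb4, -0.56) and a median of 0.15. Efferocytosis and complement had 2 of 25 higher (Dock1, 0.90, and the receptor kinase gene Axl, 0.86), and oxidative stress 2 of 29 (Prdx3, 0.96, and Prdx4, 0.56), with medians of 0.09 and 0.11 and 0 lower. Other probe sets above the filter had 0.03 for Dock1 and -0.28 for Prdx4. Fc gamma receptor (13 genes), immediate early (21) and matrix metalloproteinase (22) lists had 0 genes at that p in either direction and medians of 0.12, 0.35 and 0.11. Of 23 collagen and matrix genes 3 were higher, 0 lower and the median was 0.13, with Col15a1 (1.44), Vcan (1.07) and Tnc (0.53). Under quantile normalization the medians of nucleic acid sensors, scavenger receptors, inflammatory cytokines, Fc gamma receptors, oxidative stress, ribosomal proteins, metalloproteinases, collagens, smooth muscle and cartilage turned below 0. With the brightness covariate the medians were 0.04 for heat shock genes, -0.06 for the unfolded protein response and for immediate early genes, -0.05 for the constitutive proteasome, -0.06 for lipid droplet genes, 0.18 for chemokine receptors, 0.10 for neutrophils, -0.37 for adipocytes and 0.04 for fibroblasts.

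No marker of another cell type passed the gene test. Beside the cell type counts below stand 11.2% of all genes higher and 4.65% lower at an unadjusted p under 0.05. In bulk samples, a smaller share of a cell type and less RNA per cell cannot be told apart. Macrophage markers had 2 of 17 higher (Aif1, 1.08, and Cebpa, 0.93), 0 lower and a median of 0.10, and the list's mean ran from 11.44 to 11.69 in CHOW and from 11.58 to 11.98 in 14w-WD. Fibroblast and pericyte markers had 1 of 14 higher (Fap, 1.09), 0 lower and a median of 0.47, with means of 9.11 to 9.64 in CHOW and 9.44 to 10.30 in 14w-WD. Pdgfra, a defining marker, had 1.03 and Col1a2 0.06. Smooth muscle markers had 0 of 11 at an unadjusted p under 0.05, a median of 0.09 and -0.36 for Acta2 (SE 0.19), with means of 7.82 to 9.37 and 8.14 to 8.82. Endothelial markers had 0 of 13, a median of -0.03 and Pecam1 below the filter in both groups, with means of 7.79 to 8.20 and 7.44 to 8.54. With the brightness covariate the medians were -0.36 for smooth muscle and -0.54 for endothelium, and under quantile normalization -0.20 and -0.18.

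Heart muscle markers had 2 of 20 higher, 0 lower and a median of 0.79, which was 0.14 without CHOW replicate 4. Myl4, an atrial myosin light chain gene, stood at 12.64, 12.98, 12.29, 6.66 and 6.26 in CHOW and at 12.38, 12.26, 12.37, 13.65 and 13.35 in 14w-WD. CHOW replicates 4 and 5 lay far below the other 8 arrays (2.63, SE 1.12, adjusted p = 0.267). Myl7, its atrial partner, was low on the same arrays (8.11 and 7.73, against 12.49 to 13.71 elsewhere). Myl2 and Myl3, light chain genes of the ventricle, ran the other way with -2.23 (SE 1.76) and -1.18 (SE 1.16), with errors close in size to the values. When the model included each array's mean of this list, a setting added once the data had been seen, 1 gene passed the gene test, 1140 were higher and 457 lower at an unadjusted p under 0.05.

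Markers of lymphocytes, dendritic cells and neutrophils had 0 genes at an unadjusted p under 0.05 in either direction. Their medians were -0.04 for T and NK cells (9 genes), -0.01 for B cells (9), -0.05 for dendritic cells (7) and -0.34 for neutrophils (6). List means ran from 7.29 to 7.43 in CHOW and from 7.18 to 7.50 in 14w-WD for T and NK cells, and from 7.48 to 8.00 and 7.31 to 8.20 for neutrophils. Cartilage had 1 of 7 lower (Matn1, -0.66) and a median of 0.13, adipocytes 1 of 6 lower (Lep, -0.68) and a median of 0.29, and the erythroid list, with 2 tested genes, had a median of -0.20. What part of any difference above comes from array brightness or from neighbouring cells was not tested beyond the covariates given.

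**Figure D5:**
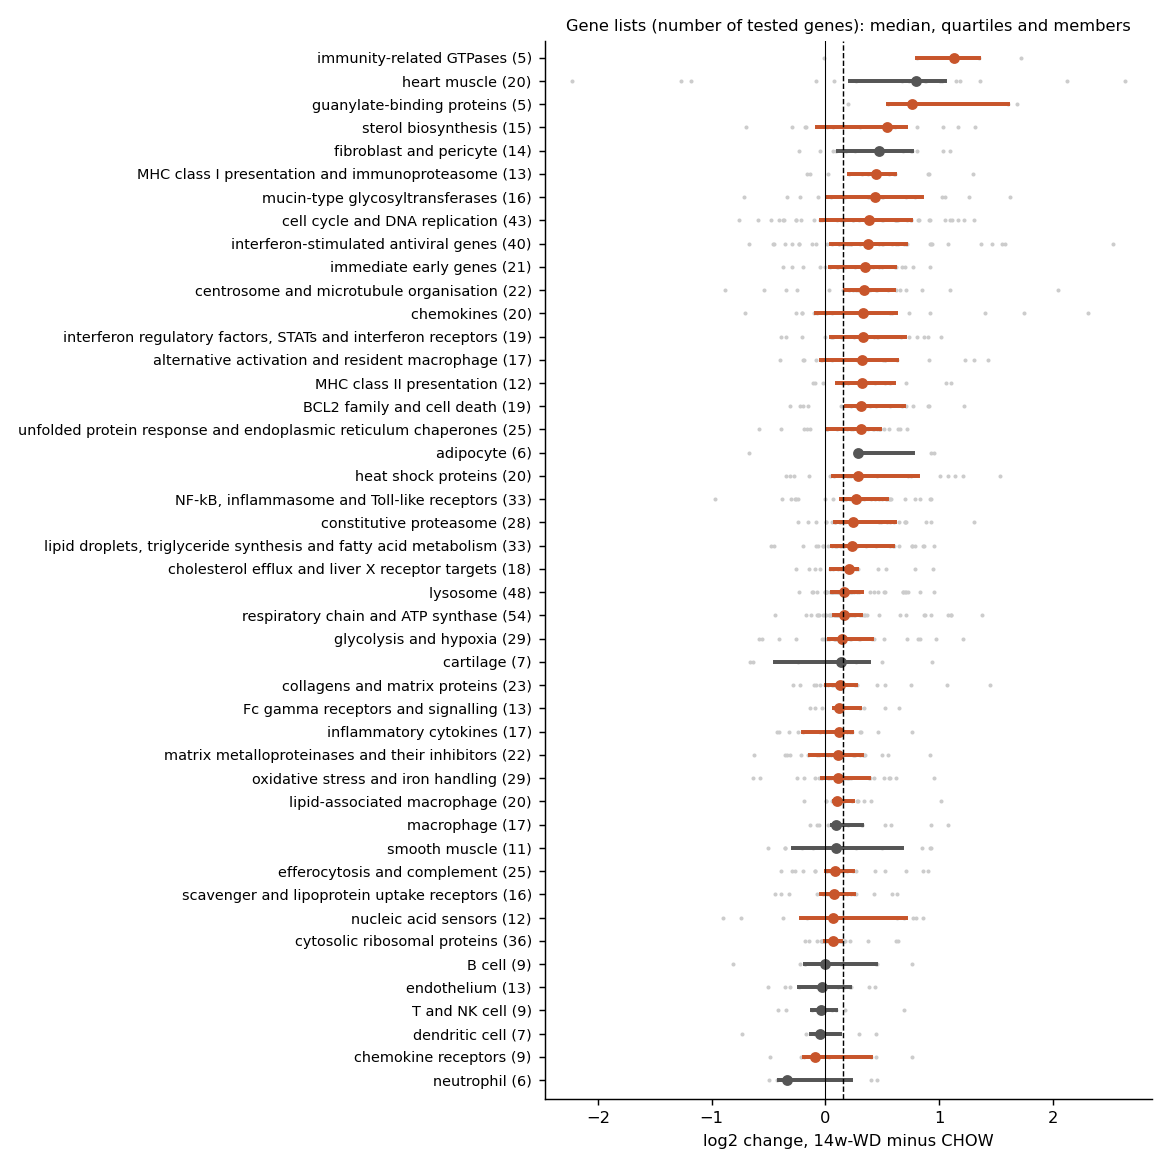
Log2 changes of the tested members (grey points) of each gene list with at least 5 of them, with the list's median (dot) and quartiles (bar), in orange for processes and dark grey for cell types. The dashed line marks the median of all genes, 0.16. The immunity-related GTPases (1.13), heart muscle (0.79) and guanylate-binding proteins (0.76) lie farthest to the right, and neutrophil markers (-0.34) farthest to the left.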

How the data were processed

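The deposited table gives 1 linear intensity for each of 45037 probe sets and 15 arrays. The authors' summary and normalization method is not stated in the sources available here, and the values were not rescaled. Array medians over all probe sets were nearly alike. The median level of the tested genes was not, with 6.81 to 7.20 in CHOW and 6.99 to 7.41 in 14w-WD. Probe sets with 1 gene in GEO's platform annotation (34945, with 932 of several genes and 9160 unnamed here) were named. Values were turned into log2(intensity + 16). The brightest probe set stood for each of 18193 genes, and 11925 whose mean reached the median of all probe sets (5.66, an intensity of 34.6) were tested. limma 3.58.1 (lmFit and eBayes with trend, two-sided, R 4.3.3) fitted the 3 groups on all 15 arrays, with Benjamini-Hochberg adjustment over all 11925 genes. The fit was tested on simulated data. The number of arrays limits the precision.

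The contrast and the 46 gene lists were chosen with earlier results of these data known. Named genes were those past an adjusted p of 0.05, the 12 higher and 12 lower with the smallest p, the 8 largest differences each way among bright genes without overlap, up to 4 members per list with an unadjusted p under 0.05, and fixed markers. Clone and predicted names outside the lists were left out, and further list members were named after their values were seen. Alternatives covered scaling, pseudocount, filter, probe set choice, model, weights, covariates and leaving out each array. The 6268 genes below the filter were described without a test.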

Additional observations from a re-analysis of the deposited data

Results flagged for a closer look

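Of 378 groups of 5 arrays looked at, 32 had 1 array far from the other 4, where chance gives about 1 in 20, and 3 genes left out of the test stood apart between groups.

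CHOW replicate 1 was the lone high array for Psmb9 (7.15), Gnptab (7.80), Ccl8 (9.05), Ndufs4 (8.60) and Aif1 (7.35), and the lone low one for Plpp6 (5.66), Wnt7b (6.16) and Abca1 (11.72). It was also the CHOW array with the largest share of bright probe sets, 24.7%. CHOW replicate 5 was alone and low for Rsad2 (6.83, where the other CHOW arrays stood at 10.05 to 10.39), Ssx2ip (4.68) and Sass6 (4.66), and high for Sertad1 (11.59). CHOW replicate 4 was alone and low for Myh6, the heart muscle myosin gene (9.98 against 13.81 to 14.50), and Adcy3 (10.03), and high for Macroh2a3 (6.92). CHOW replicate 2 was alone and high for Actn4 (13.02) and for the mean of the T and NK cell list (7.43).

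In 14w-WD, replicate 4 was alone and low for Tlr3 (6.19), Psmb9 (5.14), Ahsa1 (7.65), Lep (4.26) and Acta2 (12.33). It was also low for the means of the MHC class I and immunoproteasome list (8.63 against 9.20 to 9.31), the efferocytosis and complement list (10.04) and the Fc gamma receptor list (10.35). Replicate 1 was alone and high for Cd9 (9.57), Cx3cr1 (7.73), Galnt11 (8.69) and Pecam1 (6.36). Replicate 5 was low for Tex15 (4.92) and high for Psme1 (7.59), and replicate 2 was high for the respiratory chain list (11.93).

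Among genes whose mean level kept them out of the test, Arid3b, a DNA-binding factor gene, stood at 4.26 to 4.53 in CHOW and at 6.06 to 6.73 in 14w-WD, a difference of 1.96. Six4, a homeobox gene, differed by 1.49 and the zinc finger gene Zfp953 by 1.30. In all 3 genes every 14w-WD array lay above the filter level and every CHOW array below it.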

How the results depend on the processing

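Galnt7 was the 1 gene called. That count was 0 under quantile normalization, with a filter at an intensity of 100, with all probe sets of a gene averaged, and with the share of bright probe sets as a covariate. It was 7 with a pseudocount of 64, 17 with no filter, 146 when only the 10 CHOW and 14w-WD arrays were fitted, 2234 under array weights, 1347 with the 3 lowest-weighted arrays removed and 1922 with those 10 arrays weighted. The covariate and the last 2 settings were chosen after seeing the data. Leaving out 1 array gave from 0 to 193, with 193 for 2w-WD replicate 1, 17 for CHOW 1, 8 for 2w-WD 4, 4 for CHOW 4, and 0 for CHOW 2, 3 and 5 and 14w-WD 1, 3 and 5. The labels do not say whether replicate numbers pair the samples. The 5 CHOW and 14w-WD pairs correlated at 0.307, 0.142, -0.136, -0.138 and 0.0518, and 2 of 5 CHOW arrays correlated best with their own number. So few pairs cannot decide whether the numbers mark something shared. With the replicate number as a block 20 genes were called.

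Genes higher at an unadjusted p under 0.05 (1338) numbered 706 under quantile normalization, 663 with the filter at 100, 3085 under array weights, 337 with the covariate, 2628 with 3 arrays removed, 3138 with 10 weighted arrays and 872 to 1992 leaving out 1 array. In the same order without the covariate, lower genes (555) numbered 912, 108, 1185, 1042 and 1068, then 365 to 834 leaving out 1, and 884 with no filter. Genes without overlap, 368 above and 213 below, numbered 190 above and 314 below under quantile normalization, 213 and 36 with the filter at 100, and 1037 and 633 with 3 arrays removed. Leaving out 1 array gave 366 to 1041 above and 211 to 633 below, where fewer arrays make a lack of overlap more frequent by construction. The median change of all genes was -0.024 with the covariate. The brightness difference was 2.55 to 3.89 percentage points leaving out 1 array, with an exact permutation p of at most 0.0635.

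Of the named genes, small changes turned sign in few settings. Eif4b had 0.084 with probe sets averaged, Lyz2 -0.00065 with the covariate and Cd68 0.037 with 3 arrays removed. Leaving out 1 array gave -0.38 to 0.17 for Cd68, -0.010 to 0.11 for Lyz2, -0.061 to 1.07 for Myh6 and -0.038 to 0.34 for Gbp2. Where not stated, the cause was not tested. Signal over background limits genes near the filter: 176 of the 555 lower genes had a 14w-WD mean below it, and 134 of the 1338 higher genes a CHOW mean below it.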

Other observations

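Of the 6268 genes left out of the test for a low mean level, 487 had a mean above the filter in 14w-WD and below it in CHOW, and 339 the reverse. All 5 arrays of a group lay on their side of the filter for 10 genes higher in 14w-WD and 6 higher in CHOW. Beside those named above, the first set held Slc2a8, which encodes an intracellular glucose transporter (5.04 in CHOW and 6.34 in 14w-WD), B9d2, a cilium gene (5.33 and 6.28), Tfdp1, the partner of E2F factors (5.20 and 5.99), and Dusp7, a phosphatase gene (5.37 and 5.85). The other set held Serpinb2, an inhibitor of plasminogen activators that is known from activated macrophages (6.14 in CHOW and 4.96 in 14w-WD), Elovl7, a fatty acid elongase gene (5.95 and 5.27), and Kcnk15, a potassium channel gene (5.96 and 5.14). Il6 averaged 5.06 ± 0.68 in CHOW and 6.47 ± 1.43 in 14w-WD (SD, n = 5). It stood at 7.06, 5.71, 8.04, 7.16 and 4.39 on the 14w-WD arrays, so that array 5, the highest for Gbp3 and Ifit2, was the lowest for Il6. These values come without a test.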
